A study of Homo sapiens with 12 samples.

Results

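The NRF2 antioxidant genes were followed as 9 genes of the 58884 in the count table: NFE2L2, which encodes the transcription factor NRF2, its inhibitor KEAP1, and the target genes HMOX1, NQO1, GCLM, GCLC, SRXN1, TXNRD1 and PRDX1. They were chosen by symbol, with earlier results of these data known, and each symbol matched 1 gene identifier of the table. RNA was sequenced from U2932 and TMD8, cell lines of diffuse large B-cell lymphoma (DLBCL) labelled as wild type (WT). Cells of each line were exposed to 20 µg/mL of rituximab (R), ofatumumab (OF) or a human IgG1 isotype control for 4 h. R and OF are antibodies that bind CD20, a surface protein of B cells, at different epitopes. Each of the 6 conditions had 2 libraries, 1 from each of the cultures into which a line had been split for a week, so the lines are single models and the replicates are cultures of the same line.

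NRF2 is held at a low level in resting cells because KEAP1, an adaptor of the CUL3 ubiquitin ligase, delivers it for degradation. Oxidants and electrophiles modify cysteines of KEAP1, NRF2 then accumulates, pairs with a small MAF protein and binds antioxidant response elements near genes for glutathione synthesis, thioredoxin recycling, quinone reduction and haem breakdown. The repressor BACH1 occupies many of the same elements, HMOX1 among them. Because this control acts largely on the NRF2 protein, the mRNA of NFE2L2 is no measure of NRF2 activity, and no protein was measured in these libraries.

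The antioxidant response element was searched by its core letters, TGACNNNGC, on both strands of the RefSeq promoters (GRCh38.p14, 250 bases before to 50 after each start). Promoters were listed for 7 of the 9 genes, and those of HMOX1 and PRDX1 were not used here. The core occurred in 13.3% of all 35116 promoters, and in 4 of the 10 listed for the 7 genes, namely 1 of GCLM, both of TXNRD1 and the second of those listed for KEAP1. Of 6 matches, 4 are printed below, and a further match each in KEAP1 and TXNRD1 is left out. They are written 5′ to 3′ on the strand of the gene, with the core or its reverse complement in capitals:
GCLM, core starting 34 bases before the start, chr1:93909446-93909474, minus strand: tacgatttctGCTTAGTCAttgtcttcca
KEAP1, second listed start, core starting 31 bases before it, chr19:10502784-10502812, minus strand: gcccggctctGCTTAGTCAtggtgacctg
TXNRD1, core starting 99 bases before the first listed start, chr12:104215670-104215698, plus strand: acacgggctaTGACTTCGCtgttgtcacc
TXNRD1, core starting 102 bases before the second listed start, chr12:104286920-104286948, plus strand: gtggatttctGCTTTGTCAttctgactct
The printed matches of GCLM and KEAP1 carried the same 9 letters, and the KEAP1 match left out carried others. The GENCODE 29 annotation placed 11 of the 29 bases of the GCLM window in an exon of GCLM, all 29 of the KEAP1 window and of the second TXNRD1 window in exons of other transcripts of those genes, and 0 of the first TXNRD1 window. A match is a sequence description, not a measured binding site. Sequence outside these promoter windows was not searched, so a gene without a match is not read as lacking the element.

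The libraries held 15440226 to 27110612 counts. All 7 B-cell markers had at least 10 counts in every library, and the summed level of the myeloid markers was at most 1.49 CPM (counts scaled to a common library size over the 12 libraries). The T-cell markers summed to 6.77 to 9.21 CPM in U2932 and to at most 0.774 CPM in TMD8, with CD3G at 0 in both lines, and the U2932 sum was nearly all TRAC (6.70 to 9.16 CPM), CD3D and CD2 also being at 0 there. The epithelial markers summed to 28.7 to 37.4 CPM in U2932 and 2.29 to 2.75 CPM in TMD8, with KRT19 at 0 in both, and the U2932 sum was nearly all EPCAM (28.6 to 37.3 CPM). Within TMD8, the OF and isotype libraries of replicate 2 stood apart, with 7.16% and 6.51% of their counts on ribosomal protein genes against 10.0% to 10.8% in the other 4. Within U2932 the ribosomal protein genes took 4.44% and 4.75% of the isotype libraries and 6.03% to 6.56% of the R and OF libraries. In bulk RNA, a change in every cell and a change in some of the cells cannot be told apart.

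Levels per exon length, as CPM divided by the exon length in kilobases (RPKM), spanned several orders of magnitude. In U2932, PRDX1, an abundant peroxiredoxin, had 553 ± 114 RPKM (SD, n = 6 libraries), followed by TXNRD1, the cytosolic thioredoxin reductase, at 63.2 ± 4.06, KEAP1 at 30.8 ± 5.20 and NFE2L2 at 13.5 ± 0.631. GCLC, the catalytic subunit of the glutamate-cysteine ligase that starts glutathione synthesis, had 5.45 ± 0.435 RPKM, HMOX1, the inducible haem oxygenase, 4.38 ± 1.42, and GCLM, the modifier subunit of that ligase, 3.06 ± 0.331. NQO1, a quinone reductase often read as an NRF2 target, stood at 0.485 ± 0.0900 RPKM and SRXN1, the sulfiredoxin that restores overoxidized peroxiredoxins, at 0.0914 ± 0.0491. The value of SRXN1 is not read as its expression, because of the shared exon bases given below. The ranges of the 6 libraries overlapped between GCLC and HMOX1 and between HMOX1 and GCLM, and between no other neighbours in this order.

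TMD8 had PRDX1 at 440 ± 114 RPKM, TXNRD1 at 36.5 ± 6.26, HMOX1 at 31.0 ± 7.06 and KEAP1 at 27.5 ± 4.29 (SD, n = 6). Lower levels were found for GCLC at 5.55 ± 0.603 RPKM, NFE2L2 at 5.49 ± 0.700, NQO1 at 2.88 ± 0.693, GCLM at 2.03 ± 0.394 and SRXN1, with the same limit, at 0.0373 ± 0.0257. Neighbouring ranges overlapped for TXNRD1 with HMOX1, HMOX1 with KEAP1, GCLC with NFE2L2 and NQO1 with GCLM. The place of HMOX1 in this order moved with the antibody. In TMD8 its mean was 23.4 RPKM under isotype, below KEAP1 at 29.01, and 39.0 RPKM under OF, above TXNRD1 at 35.2, and in U2932 under isotype it was 2.60 RPKM beside 2.66 for GCLM.

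**Figure D1:**
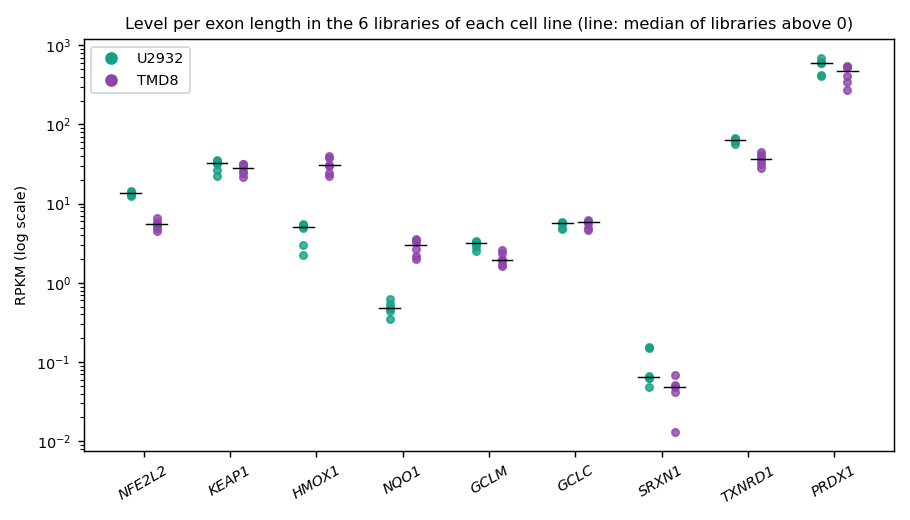
Level of each gene in RPKM (log scale) in the 6 U2932 and 6 TMD8 libraries, each point 1 library and each bar the median of the libraries above 0. HMOX1 and NQO1 lie higher in TMD8 and NFE2L2 and TXNRD1 higher in U2932. The points of SRXN1 lie lowest in both lines (1 TMD8 library at 0 is not drawn), but its low count is not read as its expression.

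Under isotype, 5 of the 8 tested genes differed between the lines, 3 higher and 2 lower in U2932, where 33.2% and 33.7% of all genes tested were higher and lower (edgeR quasi-likelihood test, adjusted p-value under 0.10). HMOX1 had 7.16 and 5.35 CPM in the isotype libraries of U2932 and 53.9 and 58.9 CPM in those of TMD8, a log2 difference of −3.17 (SE 0.15, adjusted p = 1.83e-08). NQO1 had 1.43 and 1.14 CPM in U2932 and 10.8 and 7.03 CPM in TMD8, a log2 difference of −2.78 (SE 0.27, adjusted p = 3.95e-06). Both mRNAs were thus several-fold lower in U2932, with no overlap between the lines.

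NFE2L2 ran the other way, with 77.4 and 85.8 CPM in U2932 against 39.1 and 29.4 CPM in TMD8, a log2 difference of 1.25 (SE 0.16, adjusted p = 3.67e-05). TXNRD1 was higher in U2932 by 0.92 (SE 0.14, adjusted p = 1.71e-04) and GCLM by 0.54 (SE 0.20, adjusted p = 0.0374). The call for GCLM was lost with a correction for GC content (0.38, adjusted p = 0.140), without U2932 isotype replicate 1 and without TMD8 isotype replicate 1, with 0.159 the highest adjusted p-value on leaving out a library. GCLC differed by 0.03 (95% interval −0.21 to 0.26), KEAP1 by −0.24 (−0.55 to 0.07) and PRDX1 by 0.27 (−0.21 to 0.74), and none of these passed. KEAP1 passed without U2932 isotype replicate 1 (−0.38, adjusted p = 0.0853) and without TMD8 isotype replicate 1 (−0.38, adjusted p = 0.0431), and PRDX1 without the latter (0.60, adjusted p = 0.0228).

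The comparison of R with isotype in U2932 asked which of these genes responded to the antibody, and 6 of the 8 tested rose: KEAP1, HMOX1, GCLM, GCLC, TXNRD1 and PRDX1. Among all 14635 genes tested 16.8% were higher. OF against isotype raised 5 of 8, the same without TXNRD1, where 18.7% of all genes were higher. Because the genes were chosen with earlier results of these data known, these shares are a background and give no test of the set. The median log2 fold change of the 8 genes was 0.35 for R and 0.30 for OF, beside −0.02 and 0.01 over all genes tested. Both comparisons use the same isotype libraries and are not independent of each other. Statements that groups of libraries did or did not overlap describe single genes. The share of all genes without overlap is not given here, so they are not read as evidence of a change. The changes in 4 of these genes were small. By at least 1.5-fold, 2 genes rose under R (HMOX1 and PRDX1) and 1 under OF (HMOX1), beside 5.19% and 5.90% of all genes. The share of ribosomal protein genes given above moved with the same groups, and its part in these changes was not tested.

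**Figure D2:**
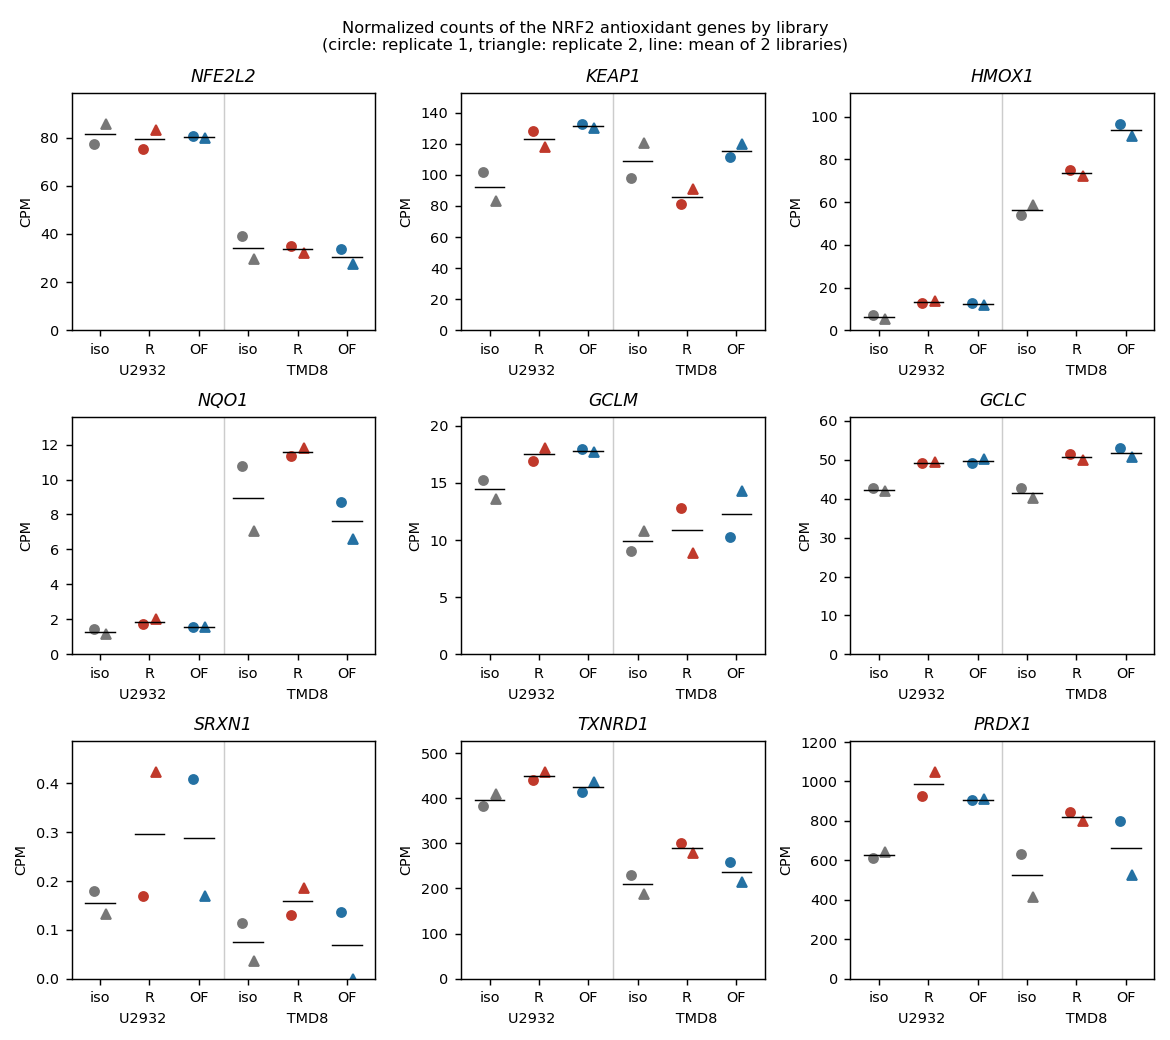
Normalized counts (CPM, linear axes from 0) of the 9 genes in each library, by cell line and antibody, with circles for replicate 1, triangles for replicate 2 and lines for the mean of 2 libraries. In U2932 the R and OF libraries of HMOX1 and PRDX1 lie above both isotype libraries, NFE2L2 is level, and in TMD8 the replicate 2 libraries of OF and isotype lie low for PRDX1 and TXNRD1.

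NFE2L2 mRNA differed little between the antibodies in U2932. It had 75.5 and 83.3 CPM with R, 80.9 and 80.0 CPM with OF and 77.4 and 85.8 CPM with isotype, so the groups overlapped. The log2 fold change was −0.04 under R (95% interval −0.23 to 0.15, adjusted p = 0.800) and −0.02 under OF (−0.21 to 0.18, adjusted p = 0.926). NFE2L2 shares 54 exon bases with AGPS and 190 with an antisense gene on the opposite strand, and 1054 with AC019080.1 on its own strand, which had at most 39 counts in any library.

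KEAP1 had 128 and 118 CPM with R, 133 and 130 CPM with OF and 102 and 83.4 CPM with isotype in U2932. All 4 anti-CD20 libraries were above both isotype libraries. On the log2 scale KEAP1 rose by 0.41 under R (SE 0.10, adjusted p = 0.0025) and 0.51 under OF (SE 0.10, adjusted p = 2.96e-04). It passed in all 6 fits that left out 1 library, but not with R when all 12 libraries were fitted together (0.41, adjusted p = 0.146).

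HMOX1, which opens the haem ring to release iron, carbon monoxide and biliverdin, had the largest log2 fold change of the 8 tested genes in U2932, under each antibody. It had 12.8 and 13.5 CPM with R, 12.6 and 11.8 CPM with OF and 7.16 and 5.35 CPM with isotype, from 122 to 255 counts a library, and the anti-CD20 and isotype libraries did not overlap. The increase was 2.10-fold under R (log2 1.07, SE 0.15, adjusted p = 8.34e-06) and 1.95-fold under OF (log2 0.97, SE 0.16, adjusted p = 3.84e-05). Between same-numbered libraries the log2 ratio to isotype was 0.83 and 1.32 with R and 0.81 and 1.12 with OF. Even so, HMOX1 in the treated U2932 libraries stayed below every TMD8 library, the lowest of which had 53.9 CPM.

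NQO1 had 26 to 38 counts per U2932 library. Its levels were 1.74 and 2.01 CPM with R, 1.58 and 1.58 CPM with OF and 1.43 and 1.14 CPM with isotype. The treated libraries were above both isotype libraries, but neither comparison passed. The log2 fold change was 0.55 under R (95% interval −0.09 to 1.18, adjusted p = 0.203) and 0.30 under OF (−0.36 to 0.96, adjusted p = 0.529).

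The subunits of glutamate-cysteine ligase rose little. GCLM had 17.0 and 18.1 CPM with R, 17.9 and 17.7 CPM with OF and 15.3 and 13.6 CPM with isotype, and rose on the log2 scale by 0.28 (SE 0.12, adjusted p = 0.0927) and 0.31 (SE 0.12, adjusted p = 0.0583). GCLC had 49.2 and 49.4 CPM with R, 49.2 and 50.2 CPM with OF and 42.7 and 41.9 CPM with isotype, and rose by 0.22 (SE 0.10, adjusted p = 0.0961) and 0.24 (SE 0.10, adjusted p = 0.0667). For both genes the treated and isotype libraries did not overlap, a description without the share of all genes beside it.

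TXNRD1, the selenoenzyme that keeps thioredoxin reduced, had 442 and 459 CPM with R, 415 and 437 CPM with OF and 382 and 410 CPM with isotype. The log2 fold change of 0.18 with R passed (SE 0.08, adjusted p = 0.0944) and that of 0.11 with OF did not (SE 0.08, adjusted p = 0.331), although it did after GC correction (0.16, adjusted p = 0.0442). The OF and isotype libraries lay close, with 415 CPM the lowest for OF and 410 CPM the highest for isotype.

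The calls for GCLM, GCLC and TXNRD1 with R stood near the limit. Each was lost in 5 of the 6 fits that left out 1 library, with adjusted p-values up to 0.325, 0.249 and 0.271. GCLM and GCLC kept the call without U2932 isotype replicate 1 and TXNRD1 without U2932 isotype replicate 2. With OF, GCLM and GCLC lost it without either OF library or without isotype replicate 2, with adjusted p-values up to 0.247 and 0.368. Their log2 fold changes were above 0 in every one of these fits.

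PRDX1, which reduces hydrogen peroxide with electrons from thioredoxin, had the highest level of the 9 genes in each line. Its libraries had 927 and 1048 CPM with R, 906 and 910 CPM with OF and 614 and 644 CPM with isotype in U2932, with no overlap. The increase was 1.57-fold under R (log2 0.65, SE 0.08, adjusted p = 9.20e-07) and 1.45-fold under OF (log2 0.53, SE 0.08, adjusted p = 1.44e-05). These calls held without each of the 6 libraries and were lost when all 12 libraries were fitted together (adjusted p = 0.131 and 0.205). PRDX1 has 1 pseudogene named after it and shares 379 exon bases with MMACHC on the opposite strand (208 to 795 counts), so a part of its reads is uncertain where counting did not use strand.

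SRXN1 could not be tested in either line. Its U2932 libraries had 3 and 8 counts under R, 7 and 3 under OF and 4 and 3 under isotype, and those of TMD8 had 2 and 3, 2 and 0, and 2 and 1 in the same order. In addition, 2292 of its 2698 exon bases are shared with AL121758.1 on the same strand, which had 0 counts in all libraries, and how reads in shared bases were assigned is not given in the sources used here, so its low count is not read as its expression.

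**Figure D3:**
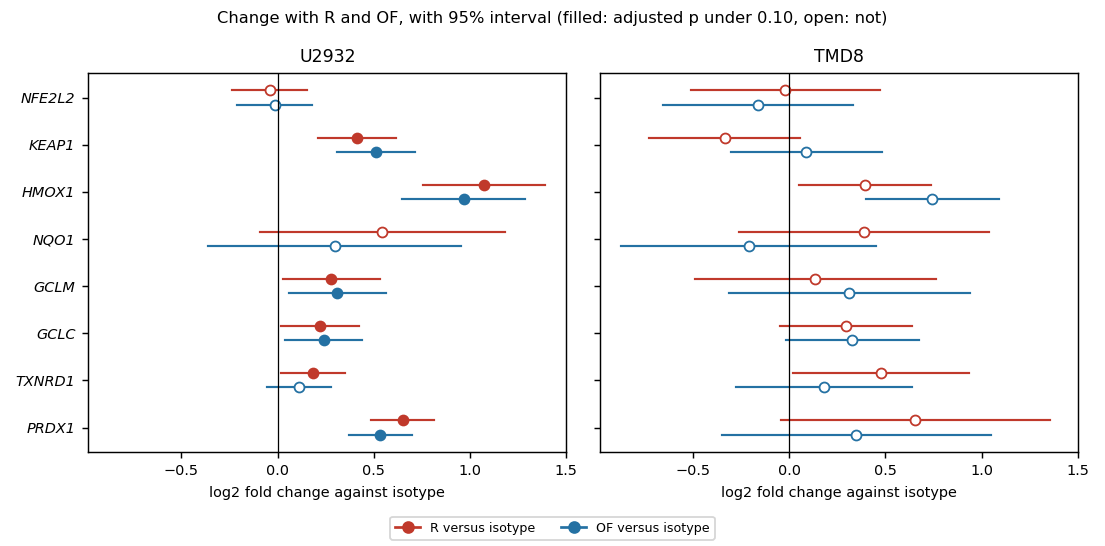
Log2 fold change against isotype (horizontal axis, with 95% intervals) of the 8 tested genes for R and OF in U2932 (left) and TMD8 (right), filled where the adjusted p-value was under 0.10. The U2932 points of HMOX1 lie near 1, and the intervals are wider in TMD8, where no point is filled.

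In TMD8 none of the 8 tested genes passed in the edgeR test, for R or for OF, where 0.647% and 0.815% of 14227 genes did. At an unadjusted p-value under 0.05 there were 2 genes under R (HMOX1 and TXNRD1) and 1 under OF (HMOX1), and DESeq2 called 0 and 1 (HMOX1), where 15.9% and 14.1% of all genes had an unadjusted p-value under 0.05 and DESeq2 called 4.90% and 3.31%. Same-numbered TMD8 libraries were taken to come from the same culture, so values with the replicate as a block are given as well. Deviations from the condition means correlated at 0.576 between OF and isotype. Those of R correlated less, at 0.177 with OF and 0.176 with isotype. With the block, HMOX1, TXNRD1 and PRDX1 rose with R and HMOX1 rose with OF, where 8.99% and 7.45% of all genes were higher.

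HMOX1 had 74.9 and 72.3 CPM with R, 96.7 and 91.1 CPM with OF and 53.9 and 58.9 CPM with isotype in TMD8. The 3 groups did not overlap, with OF highest and isotype lowest. The log2 fold change was 0.39 under R (SE 0.14, adjusted p = 0.262, with the block 0.0826) and 0.74 under OF (SE 0.15, adjusted p = 0.115, with the block 0.0136). Same-numbered libraries had log2 ratios of 0.48 and 0.30 for R and of 0.84 and 0.63 for OF.

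TXNRD1 had 301 and 278 CPM with R, 259 and 214 CPM with OF and 230 and 188 CPM with isotype in TMD8. Replicate 2 was the lower library in each group. The log2 fold change with R was 0.48 (SE 0.19, adjusted p = 0.297, with the block 0.0531), and the OF libraries overlapped those of isotype (0.18, adjusted p = 0.732).

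PRDX1 had 843 and 799 CPM with R, 801 and 525 CPM with OF and 631 and 416 CPM with isotype in TMD8. The OF and isotype libraries of replicate 2, which also had the low ribosomal protein share, were the lowest, and the part of that share in the spread of PRDX1 was not tested. With R the log2 fold change was 0.66 (95% interval −0.04 to 1.36, adjusted p = 0.339, with the block 0.0436), and with OF 0.35 (−0.35 to 1.05, adjusted p = 0.659, with the block 0.260). Without both of those libraries, an alternative chosen after seeing the data, the log2 fold changes of PRDX1 were 0.37 with R and 0.34 with OF, those of HMOX1 0.44 and 0.83, and that of TXNRD1 with R 0.32. That fit leaves 1 library each for OF and isotype in TMD8 and takes the spread from the R pair, so only its values are given here.

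The other genes gave values that did not pass in TMD8 with or without the block, but GCLC with OF passed with the block and a GC correction together (0.39, adjusted p = 0.0719). KEAP1 had 81.4 and 90.7 CPM with R, 112 and 120 CPM with OF and 97.7 and 121 CPM with isotype, a log2 fold change of −0.33 under R (95% interval −0.73 to 0.06) and 0.09 under OF (−0.30 to 0.48). GCLC had 51.4 and 49.96 CPM with R, 53.1 and 50.7 CPM with OF and 42.7 and 40.3 CPM with isotype, with no overlap between treated and isotype libraries, and 0.30 (−0.05 to 0.64, adjusted p = 0.374) and 0.33 (−0.02 to 0.67, adjusted p = 0.372). The GCLC intervals were wider than in U2932, where they ran from 0.02 to 0.42 for R and from 0.04 to 0.44 for OF.

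GCLM had 12.8 and 8.89 CPM with R, 10.3 and 14.3 CPM with OF and 9.03 and 10.8 CPM with isotype in TMD8, and the 3 groups overlapped. NQO1 had 11.3 and 11.8 CPM with R, 8.72 and 6.58 CPM with OF and 10.8 and 7.03 CPM with isotype. Its log2 fold change was 0.39 under R (95% interval −0.26 to 1.04) and −0.21 under OF (−0.87 to 0.45). NFE2L2 had 35.2 and 32.1 CPM with R, 33.6 and 27.4 CPM with OF and 39.1 and 29.4 CPM with isotype, overlapping throughout, with −0.02 (−0.51 to 0.47) and −0.16 (−0.65 to 0.33).

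R and OF were compared with each other because they bind different epitopes of CD20. In U2932 none of the 8 genes passed in edgeR at an adjusted p-value under 0.30, the limit used for this comparison, where 0.00683% of all genes did. No gene of the 8 had an unadjusted p-value under 0.05 (0 genes), beside 5.10% of all genes, and DESeq2 called 0. The intervals of the log2 difference (R minus OF) were −0.20 to 0.41 for HMOX1, −0.05 to 0.28 for PRDX1, −0.30 to 0.10 for KEAP1 and −0.09 to 0.24 for TXNRD1, so differences within these ranges could not be told from the spread.

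In TMD8 the comparison of R with OF called 0 of 8 genes and 0% of all genes. Of the 8, 2 had an unadjusted p-value under 0.05, beside 4.09% of all genes, and DESeq2 called 0. The 2 genes were KEAP1 at −0.42 (95% interval −0.82 to −0.03, adjusted p = 0.733) and HMOX1 at −0.35 (−0.69 to −0.0047, adjusted p = 0.733). Between same-numbered libraries both were lower with R than with OF, by −0.45 and −0.40 for KEAP1 and −0.37 and −0.33 for HMOX1. Without the replicate 2 libraries of OF and isotype, the same alternative chosen after seeing the data with 1 OF library left, the values were −0.37 for KEAP1 and −0.39 for HMOX1. Genes of high GC content were lower with R than with OF in TMD8, the median log2 difference of the highest GC decile minus that of the lowest being −0.64, and KEAP1 and HMOX1 have 60.3% and 58.1% GC against a median of 48.5%. With a GC correction the differences were −0.14 for KEAP1 and −0.12 for HMOX1 (adjusted p = 0.965 for both).

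Whether the response differed between the lines was tested as an interaction, the log2 fold change in U2932 minus that in TMD8. None of the 8 genes passed in edgeR for R or for OF, where 0.321% and 0.105% of 16187 genes did. For R there were 2 genes at an unadjusted p-value under 0.05, KEAP1 at 0.76 (SE 0.20, adjusted p = 0.195) and HMOX1 at 0.69 (SE 0.20, adjusted p = 0.230), and DESeq2 called these 2. Of all genes 11.9% had an unadjusted p-value under 0.05, and DESeq2 called 4.47%. They also passed with a block for culture within line (0.76, adjusted p = 0.0239, and 0.70, adjusted p = 0.0682), where 2.77% of all genes were higher, and without TMD8 isotype replicate 1 (0.90, adjusted p = 0.0511, and 0.75, adjusted p = 0.0995), which leaves 1 library in that arm. With a GC correction the interaction was 0.52 for KEAP1 (adjusted p = 0.169) and 0.49 for HMOX1 (adjusted p = 0.384), and with the block and the correction together it was 0.51 (adjusted p = 0.0728) and 0.49 (adjusted p = 0.169), of which KEAP1 passed. For OF there were 0 genes at an unadjusted p-value under 0.05 and 0 called by DESeq2, beside 8.46% and 1.57% of all genes.

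The rest of the pathway was read from 7 lists of 68 genes, of which 60 could be tested in U2932 and 58 in TMD8. In U2932, 36 rose and 2 fell with R, beside 16.8% and 17.4% of all genes. With OF 38 rose and 4 fell, beside 18.7% and 17.8% of all genes. The median log2 fold change was 0.32 with each antibody. The lists were also chosen with earlier results of these data known, so the shares beside them give no test of the pathway. In TMD8 the edgeR test called 0 with R and 0 under OF (5 and 7 at an unadjusted p-value under 0.05, and 2 and 3 called by DESeq2). Of all genes, 15.9% and 14.1% had an unadjusted p-value under 0.05, above the 8.62% and 12.1% of the lists, and DESeq2 called 4.90% and 3.31% of all genes and 3.57% and 5.26% of the lists. With the replicate block 6 rose with R, and 6 rose and 1 fell with OF, where 8.99% of all genes rose with R and 7.45% rose and 6.87% fell with OF, so these counts lay near the background. Between R and OF edgeR called 0 in U2932 and 0 in TMD8 (1 and 4 at an unadjusted p-value under 0.05, and 0 and 0 called by DESeq2). Of all genes, 5.10% and 4.09% had such a p-value, beside 1.67% and 6.90% of the lists.

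**Figure D4:**
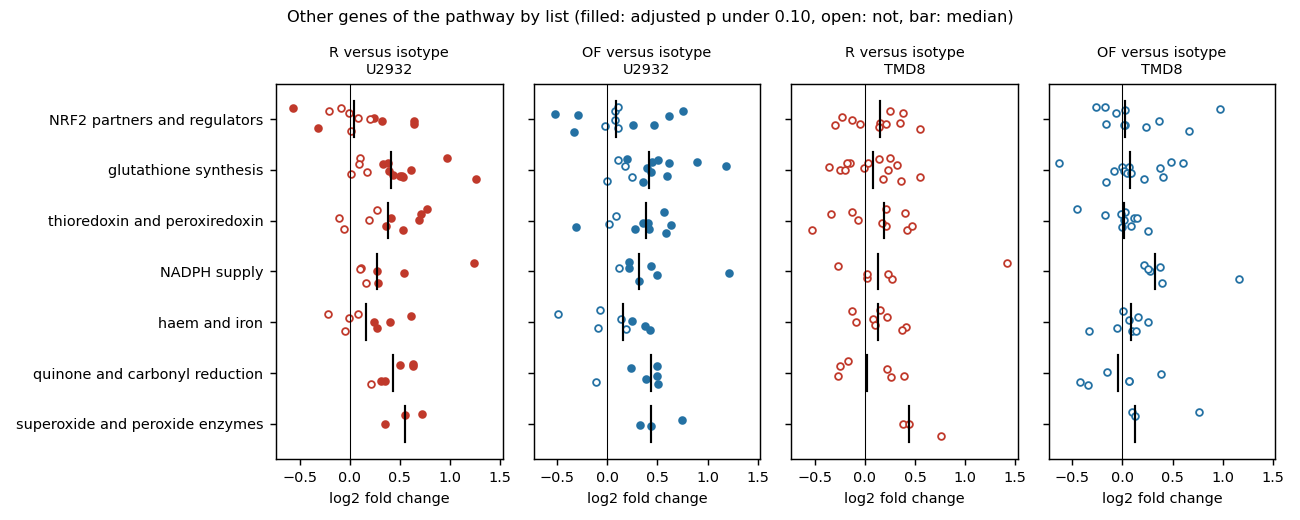
Log2 fold change against isotype (horizontal axis) of the other genes of the pathway in 7 lists, each point 1 gene, filled where the adjusted p-value was under 0.10, with a bar at the median of the list. In U2932 most genes of the enzyme lists lie to the right of 0 and are filled, and in TMD8 all points are open.

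Among 12 partners and regulators of NRF2, 4 rose and 2 fell with R in U2932, beside 16.8% and 17.4% of all genes. The number that fell lay near that share. BACH2 fell by 0.57 on the log2 scale (adjusted p = 6.96e-05) and BACH1, the repressor of HMOX1, fell by 0.31 (adjusted p = 0.0421), and with OF they fell by 0.53 (adjusted p = 1.74e-04) and by 0.30 (adjusted p = 0.0537). The call for BACH1 was lost with OF after GC correction (−0.15, adjusted p = 0.207), and with each antibody on leaving out either of its libraries or isotype replicate 2 (adjusted p up to 0.288 and 0.358). CUL3, the ligase scaffold that works with KEAP1, rose by 0.64 under R (adjusted p = 2.56e-05) and 0.62 under OF (adjusted p = 4.14e-05).

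The small MAF proteins pair with NRF2 or with BACH1. In U2932 MAFG rose by 0.32 under R (adjusted p = 0.0247) and 0.46 under OF (adjusted p = 0.0018), and MAFF by 0.64 (adjusted p = 0.0661) and 0.75 (adjusted p = 0.0277). Without U2932 isotype replicate 2 the fold change of MAFG with R was 0.14 (adjusted p = 0.297), and those of MAFF were 0.29 under R (adjusted p = 0.483) and 0.40 under OF (adjusted p = 0.313). MAFF with R also lost its call without R replicate 2 (0.46, adjusted p = 0.364). MAFK did not pass (−0.20 and −0.02), other than for R without isotype replicate 2 (−0.36, adjusted p = 0.0234).

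The remaining regulators moved less in U2932. RBX1, the RING subunit of the ligase, rose under R (0.24, adjusted p = 0.0458) and stood at 0.08 for OF. NFE2L1 rose under OF (0.26, adjusted p = 0.0358) and reached 0.20 under R (adjusted p = 0.107, with the block 0.0659), and NFE2L3 fell under OF (−0.34, adjusted p = 0.0522) and stood at −0.09 with R. SQSTM1, an adaptor that binds KEAP1, had 0.01 and 0.11, BTRC −0.0039 and 0.11 and GSK3B 0.08 and 0.07, none of which passed. On leaving out 1 library, RBX1 with R lost its call without R replicate 2 or either OF library (adjusted p up to 0.254), NFE2L1 with OF without either OF library or isotype replicate 2 (up to 0.293) and NFE2L3 with OF without either OF library (up to 0.294). NFE2L1 with R passed without R replicate 2 (0.29, adjusted p = 0.0609) or isotype replicate 1 (0.27, adjusted p = 0.0240), and SQSTM1 with OF without isotype replicate 1 (0.18, adjusted p = 0.0921).

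In TMD8, 11 of the 12 regulators could be tested, BACH2 being too low, and none passed without the block. CUL3 stood at 0.54 under R (adjusted p = 0.175, with the block 0.0384) and 0.67 under OF (adjusted p = 0.146, with the block 0.0225). MAFK stood at 0.97 under OF (adjusted p = 0.110, with the block 0.0082, and 0.0583 without TMD8 isotype replicate 2) and 0.35 with R. BACH1 stood at 0.38 under R (adjusted p = 0.285) and −0.06 with OF.

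In the glutathione list 10 of 14 tested genes rose with each antibody in U2932, beside 16.8% of all genes with R and 18.7% with OF. The largest change was in SLC7A11, the cystine importer that supplies cysteine, with 20.0 and 18.4 CPM with R, 18.5 and 17.8 CPM with OF and 6.94 and 9.07 CPM with isotype. Its log2 fold change was 1.26 under R (adjusted p = 1.58e-07) and 1.18 under OF (adjusted p = 5.93e-07). GLRX, a glutaredoxin, rose by 0.97 and 0.90 (adjusted p = 1.22e-06 and 4.90e-06), MGST3 by 0.61 and 0.61 (adjusted p = 0.0038 and 0.0039) and MGST2 by 0.50 and 0.60 (adjusted p = 0.0767 and 0.0318), the last 2 being microsomal glutathione transferases. MGST3 with R lost its call without R replicate 2 (0.32, adjusted p = 0.229), and MGST2 with R lost it in 5 of 6 fits that left out 1 library, all but that without isotype replicate 2 (adjusted p up to 0.253). MGST2 with OF lost it without either OF library or isotype replicate 1 (adjusted p up to 0.143).

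In the thioredoxin and peroxiredoxin list 6 of 10 genes rose with R in U2932, beside 16.8% of all genes. With OF 7 rose and 1 fell, beside 18.7% and 17.8% of all genes. TXN, thioredoxin itself, rose by 0.70 with R and 0.57 under OF (adjusted p = 2.91e-06 and 4.34e-05), PRDX2 by 0.77 and 0.64 (adjusted p = 2.65e-07 and 4.89e-06) and PRDX6 by 0.71 and 0.58 (adjusted p = 1.92e-06 and 3.22e-05). These changes stood beside the rise of PRDX1 and the smaller one of TXNRD1.

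Of the 7 genes for NADPH supply, 4 rose with R and 6 with OF in U2932, beside 16.8% and 18.7% of all genes. IDH1, the cytosolic isocitrate dehydrogenase that makes NADPH, had 58.3 and 62.9 CPM with R, 60.2 and 58.3 CPM with OF and 25.1 and 26.2 CPM with isotype, an increase of 1.24 and 1.21 (adjusted p = 1.44e-09 and 2.39e-09). In TMD8 it had 153 and 132 CPM with R, 139 and 99.2 CPM with OF and 63.8 and 43.2 CPM with isotype. The anti-CD20 and isotype libraries of TMD8 did not overlap, and the log2 fold changes were 1.42 under R (adjusted p = 0.103, with the block 0.0021) and 1.17 under OF (adjusted p = 0.143, with the block 0.0050). IDH1 with R passed without TMD8 isotype replicate 1 (1.75, adjusted p = 0.0593), OF replicate 1 (1.43, adjusted p = 0.0992) or OF replicate 2 (1.43, adjusted p = 0.0968).

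In the haem and iron list 4 of 8 tested genes rose with R and 3 with OF in U2932. Of all genes 16.8% rose with R and 18.7% with OF, and these shares also apply to the lists that follow. FTL, the ferritin light chain, rose by 0.61 and 0.42 (adjusted p = 1.46e-06 and 1.69e-04). FTL and TXN have processed pseudogenes, and how such reads were assigned is not given in the sources used here. In the list of quinone and carbonyl reduction 5 of 6 tested genes rose with each antibody, among them NQO2 by 0.63 and 0.51 (adjusted p = 1.59e-04 and 0.0015) and PIR by 0.63 and 0.49 (adjusted p = 7.61e-04 and 0.0066). PIR with OF lost its call without OF replicate 1 (0.39, adjusted p = 0.132). Of the superoxide and peroxide enzymes all 3 rose with each antibody, SOD2, the mitochondrial superoxide dismutase, by 0.72 and 0.75 (adjusted p = 2.47e-05 and 1.42e-05), and SOD2 stood at 0.75 and 0.76 in TMD8 (adjusted p = 0.165 and 0.181, with the block 0.0141 and 0.0172). Without TMD8 isotype replicate 1 the value of SOD2 with R passed (0.96, adjusted p = 0.0931).

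The genes whose log2 CPM followed HMOX1 most closely over the 12 libraries, centred within each line, were EIF5A (Pearson r = 0.984), ARRB2 (r = 0.979) and SLC25A11 (r = 0.974), among 12721 genes tested in both lines. For NFE2L2 they were DNAJC15 (r = 0.979), PSMC6 (r = 0.978) and PPIL3 (r = 0.971). These values are a description of libraries that share antibodies, cultures and depth.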

How the data were processed

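The deposited table holds raw counts of reads per gene made by the authors, without normalization or filter. Per the submitters' processing notes, Trim Galore 0.6.0, cutadapt, FastQC, STAR 2.7.0e, DESeq2 1.26.0 and GRCh38 were used. Annotation release and strand setting are not given in the sources used here. All 12 columns matched a library, and 0 were left out. Positions, lengths and GC content came from GENCODE 29.

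Counts were analysed with edgeR 4.0.16 in R 4.3.3 (TMM, filterByExpr at 10 counts, quasi-likelihood test, Benjamini-Hochberg over all genes tested). Each line's 6 libraries were fitted together, and all 12 for the line difference and the interactions. The limit on the adjusted p-value was 0.10, and 0.30 in U2932 for R against OF. CPM and RPKM were TMM-normalized over 12 libraries (prior count 2 for log2 CPM). Intervals are 95%. Scripts were tested on simulated data. Figures used matplotlib 3.10.9.

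Members and lists were chosen with earlier results of these data known. Text names the 9 members, the regulators of NRF2, and other pathway genes that passed with at least 1.5-fold against isotype, and for HMOX1 and NFE2L2 the 3 genes most like them. For SOD2, the first of 2 identifiers was used. The sources used here state that each line was split into separate cultures. That same-numbered libraries share a culture was taken from their numbers and is not stated. Their deviations from the condition means correlated at −0.044 to 0.095 in U2932 and at 0.176, 0.177 and 0.576 in TMD8. P-values measure the spread between cultures of 1 line, and 2 libraries a condition allow no exact test below 0.05. Alternatives were DESeq2 1.42.0, library size only, no filter, all 12 libraries in one fit, a replicate block, a GC correction, a 1.5-fold limit, only the 4 isotype libraries or the mean over antibodies for the line difference, and leaving out libraries.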

Additional observations from a re-analysis of the deposited data

Results flagged for a closer look

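SLC7A11, the cystine importer, responded differently in the lines by a test of the difference itself. The log2 fold change against isotype in U2932 minus that in TMD8 was 1.45 for R (SE 0.23, adjusted p = 0.0511) and 1.82 for OF (SE 0.23, adjusted p = 0.0270), in edgeR's quasi-likelihood test, and both comparisons share the isotype libraries. In TMD8 it had 17.4 and 18.8 CPM with R, 11.95 and 14.6 CPM with OF and 19.9 and 21.4 CPM with isotype, so both treated groups were below isotype there, while both were above it in U2932. In TMD8 alone the log2 fold change was −0.18 with R (adjusted p = 0.647) and −0.63 under OF (adjusted p = 0.188, with the replicate block 0.0353). The interaction with R lost its call without each of the U2932 R, U2932 isotype and TMD8 R libraries (1.27 to 1.66, adjusted p up to 0.311), and that with OF without either U2932 OF library or U2932 isotype replicate 1 (1.64 to 1.84, adjusted p up to 0.293). Of the 61 pathway genes tested, edgeR called 1 for R and 1 for OF, SLC7A11 both times, beside 0.321% and 0.105% of all genes. DESeq2 called 5 and 3 (4.47% and 1.57% of all genes), and edgeR with the replicate block called 4 higher and 1 lower for R and 3 higher and 1 lower for OF. With the block 2.77% of all genes were higher and 3.27% lower for R, and 1.09% and 1.14% for OF.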

How the results depend on the processing

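Counts of the 8 tested genes depended on the setting, and so did the share of all genes called. With the replicate block that share went from 0.647% to 17.7% for R and from 0.815% to 14.3% for OF in TMD8. For the interaction with R it went from 0.321% to 6.04%. With the 1.5-fold limit it went from 34.2% to 10.2% for R and from 36.4% to 11.1% for OF in U2932. The share is not given here for library size only, no filter, all 12 libraries in one fit, the block with a GC correction or leaving out a library. The counts below are therefore not read as particular to these genes. For R in U2932 (6), 2 passed with a 1.5-fold limit, 3 with library size only, 3 with no filter, 1 with all 12 libraries in one fit and 3 to 5 on leaving out a library. For OF in U2932 (5), the counts were 1, 3, 3, 2 and 3 to 5. For R in TMD8 (0), 1 passed with no filter, 2 with all 12 libraries in one fit, 3 with the replicate block and 3 with the block and a GC correction. For OF in TMD8 (0), they were 1, 1, 1 and 2, and 1 by DESeq2. R against OF in TMD8 (0) changed only in the fit without both TMD8 libraries that stood apart. The interaction with R (0) gave 2 by DESeq2, 2 with the block and 1 with the block and a GC correction. The counts for R against OF in U2932, the line difference and the interaction with OF were within 1.5 times of the main count in every alternative run. The replicate block changed no call of the 9 genes in U2932. Of 976 recomputed values of single genes none that passed in either fit changed sign, and 58 that passed in neither did. The causes were not tested. Leaving out a library leaves 1 in its arm, which is assumed to vary like the other groups. The fit without both TMD8 libraries leaves OF and isotype with 1 each and rests on the R pair for the spread within TMD8. Its counts are therefore not given. SRXN1, with at most 8 counts a library, could not be tested, and NQO1 in U2932 had at most 38.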
